A study of Mus musculus with 12 samples.

Results

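Nkx6-2 is a homeodomain transcription factor of oligodendrocytes, and Sox10, Mbp, Mog, Mag, Mobp, Cnp, Mal and Cldn11 mark the same lineage and the myelin it makes. All 9 genes were measured in RNA from the hypothalamic arcuate nucleus (ARC) of wild-type (WT) mice and of mice homozygous for the R299Q γ2 mutation (Homo). These 9 genes were taken by symbol from a table of 38283 genes, each matched a single row, and all 9 were among the 14017 genes with a mean of at least 1 FPKM, which scales the fragments of a gene to its length and to the size of the library. Nkx6-2 was chosen by its measured values, since it was higher in Homo, so its difference between genotypes is described here without a test. Sox10 and the 7 myelin genes were named for their cell type, and the question was whether they followed Nkx6-2.

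AMPK is the cell's energy sensor, and its regulatory γ2 subunit carries in these mice a knock-in change that keeps the enzyme active. The 5 WT and 7 Homo libraries were made from C57BL/6 males aged 8 weeks with free access to food. A knock-in is carried by all cells, so the genotype is not restricted to oligodendrocytes or to neurons. The ARC was cut from brain sections by laser capture, and the small RNA amounts were amplified before sequencing.

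Oligodendrocytes wrap axons in myelin, a stack of membrane that Mbp compacts and that Cldn11 seals with tight junctions between its turns. Nkx6-2 is known for its part in ordering the paranodes, where the edges of the myelin sheath meet the axon, and Sox10 is the transcription factor that drives myelin genes throughout the lineage. The ARC holds the Agrp and Npy neurons that promote feeding, and as grey matter it has fewer myelinated axons than a fibre tract.

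The 12 libraries fell into sets by the number of genes above 0 FPKM. WT 1, WT 2 and Homo 1 to 5 listed 15742 to 16467 genes, and WT 3, WT 4, WT 5, Homo 6 and Homo 7 listed 18141 to 18635. By estimate, 1 fragment per kilobase stood for 0.156 to 0.324 FPKM in the former and 0.0841 to 0.122 FPKM in the latter. The libraries with fewer genes were thus also the shallower ones, and they hold 5 of the 7 Homo but 2 of the 5 WT libraries. No label or method calls these sets batches, although Homo 6 and Homo 7 have titles of another wording than the other Homo libraries, and values within a set are given where they change a direction. The 10 highest genes held 95.9% to 98.1% of the FPKM sum of a library. Arcuate markers were abundant, with Npy at 1015 ± 390 FPKM (SD, n = 5) in WT and 1472 ± 305 FPKM (SD, n = 7) in Homo, while the ventromedial markers Nr5a1 and Fezf1 stayed below 1 FPKM in every library. The mutation changes a protein and not the presence of a transcript, so the FPKM values cannot check the genotype labels.

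The start regions of the genes are shown first because Nkx6-2 and Sox10 are DNA-binding factors. RefSeq sequences on GRCm38.p6 running from 250 bases before to 50 bases after a gene's start were matched by symbol for 7 of the 9 members, Mbp and Sox10 being the 2 without an entry. Each was searched on both strands for the SOX-type letters AACAAT and ACAAAG and for TTAATT, a core that NK6-type homeodomains bind. Capitals mark the letters found, written as CTTTGT where ACAAAG lies on the other strand. Mobp is printed because it held the most SOX-type letters, Cldn11 because it alone of the 7 held the homeodomain letters, and Nkx6-2 as the gene that was higher in Homo.
Mobp: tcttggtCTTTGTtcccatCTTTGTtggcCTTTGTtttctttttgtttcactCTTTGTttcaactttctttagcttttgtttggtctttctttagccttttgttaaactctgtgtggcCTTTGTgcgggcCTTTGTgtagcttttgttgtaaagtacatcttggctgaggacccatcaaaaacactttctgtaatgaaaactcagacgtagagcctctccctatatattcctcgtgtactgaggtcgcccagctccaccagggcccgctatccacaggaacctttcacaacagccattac
Cldn11: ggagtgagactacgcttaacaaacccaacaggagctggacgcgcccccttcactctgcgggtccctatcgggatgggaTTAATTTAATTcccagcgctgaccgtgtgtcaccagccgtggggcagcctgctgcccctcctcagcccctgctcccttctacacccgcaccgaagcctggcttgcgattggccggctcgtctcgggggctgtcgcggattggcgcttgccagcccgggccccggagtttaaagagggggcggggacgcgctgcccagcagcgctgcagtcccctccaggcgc
Nkx6-2: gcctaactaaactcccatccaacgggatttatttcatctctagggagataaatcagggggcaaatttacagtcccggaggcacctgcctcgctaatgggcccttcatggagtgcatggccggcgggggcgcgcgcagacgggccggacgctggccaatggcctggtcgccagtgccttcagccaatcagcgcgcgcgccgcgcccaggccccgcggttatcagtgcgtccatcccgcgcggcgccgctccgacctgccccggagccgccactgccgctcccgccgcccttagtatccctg
The Mobp window lies at chr9:120149492-120149791 on the plus strand, the Cldn11 window at chr3:31149670-31149969 on the plus strand and the Nkx6-2 window at chr7:139582748-139583047 on the minus strand.

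Mobp, which encodes a small basic protein of compact myelin, held ACAAAG at 6 places, all of them on the opposite strand and before the start of the gene. Of 32851 mouse start regions of this length, 18.7% held ACAAAG at least once, and Mobp was the only 1 that held it 6 or more times. Cnp and Mag each held it at 1 place, and the windows of Cldn11, Mal, Mog and Nkx6-2 did not hold it. TTAATT stood at 2 places in Cldn11 that share a base, and 11.3% of all start regions held it. AACAAT, held by 10.7% of all start regions, was found in none of the 7 windows. The Mobp window was 43.3% G or C, against 66.7% for Nkx6-2 and a median of 52.7% over all start regions. A match of letters describes these windows and says nothing of binding.

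Nkx6-2 (ENSMUSG00000041309) lies on the minus strand of chromosome 7 at 139579376-139582797 (GRCm38). Over WT 1 to WT 5 its FPKM was 5.39, 4.30, 3.78, 8.66 and 7.35. The 7 Homo libraries ran from 10.5 FPKM in Homo 3 to 15.5 FPKM in Homo 7, with a median of 11.6 FPKM. Every Homo library was above every WT library, and the nearest values across the gap were WT 4 at 8.66 FPKM and Homo 3 at 10.5 FPKM.

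The mean of Nkx6-2 was 5.90 ± 2.06 FPKM (SD, n = 5) in WT and 12.4 ± 1.86 FPKM (SD, n = 7) in Homo, a ratio of 2.09 and a difference of 0.99 on the log2(FPKM + 1) scale used throughout. Within the libraries that listed fewer genes the difference was 1.15, and within the others it was 0.94. Of the 14017 genes, 0.128% had every Homo library above every WT library, and this count includes Nkx6-2 by the way it was chosen. None of the other 8 members separated the genotypes in this manner. In bulk RNA, a change in the number of cells and a change in RNA per cell cannot be told apart.

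The paralogs of Nkx6-2 were close to absent. Nkx6-1, best known from motor neuron progenitors and pancreatic beta cells, reached 0.0890 FPKM at most, and Nkx6-3 was listed at 0 in all 12 libraries.

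Nkx6-2 also shares ground with another gene. At its 3′ end, 246 exon bases, 12.9% of the total, coincide with the end of Inpp5a, an inositol phosphate phosphatase gene on the opposite strand. The library kit does not mark strand, so fragments in this stretch cannot be assigned to either gene. Inpp5a was measured at 6.47 ± 3.00 FPKM (SD, n = 5) in WT and 11.1 ± 6.94 FPKM (SD, n = 7) in Homo, with a log2 difference of 0.58 ± 0.37 (SE, limma adjusted p = 0.915). WT values of Inpp5a (4.00 to 11.6 FPKM) lay inside the Homo range (3.78 to 22.6 FPKM). The lowest and the highest Inpp5a values were both in Homo. Homo 5, at 3.78 FPKM of Inpp5a, had 11.6 FPKM of Nkx6-2, and Homo 1, at 22.6 FPKM, had 13.4 FPKM. Nkx6-2 was chosen for its higher Homo values, so these values cannot tell what the shared stretch adds. With the genotype means removed, the r of Nkx6-2 and Inpp5a was 0.34 over 12 libraries. The part of the shared stretch in the Nkx6-2 values was not tested.

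Microglial markers were higher in Homo by value, and none of the 8 passed an adjusted p of 0.05. All 8 had a higher log2 mean in Homo, where 49.3% of the genes tested had, with a median log2 difference of 0.42, and 2 of them, C1qa (limma adjusted p = 0.763) and Aif1 (limma adjusted p = 0.870), had an unadjusted p under 0.05, which 3.05% of all genes had in that direction. The summed level of the list was 52.1 to 96.8 FPKM across WT libraries and 82.5 to 133 FPKM across Homo libraries. The defining markers Cx3cr1, Tmem119 and P2ry12 were above 0 in every library. With the genotype means removed, Nkx6-2 and the mean of the list had an r of 0.28 over 12 libraries, and their part in the Nkx6-2 difference was not tested.

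**Figure D1:**
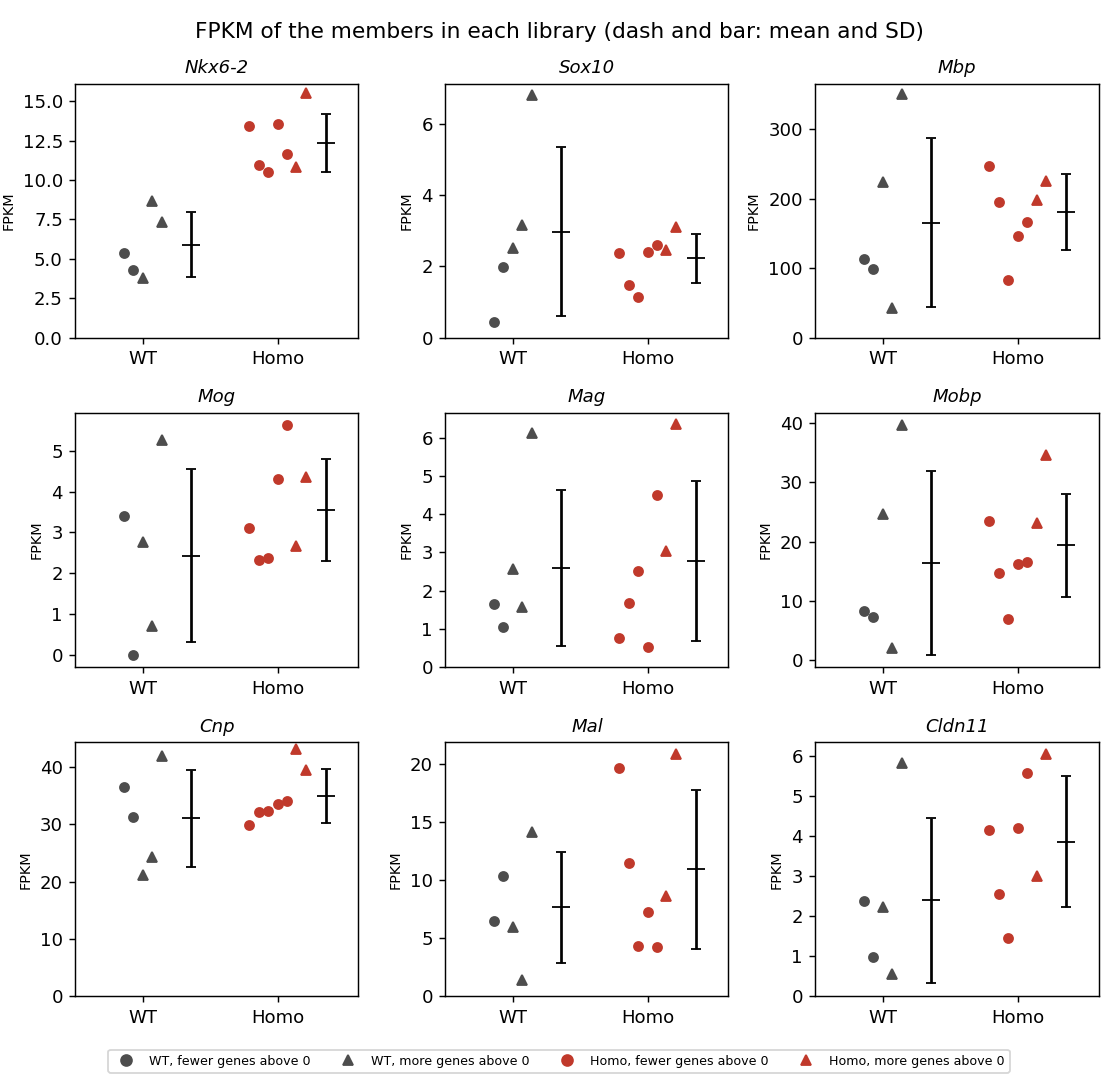
FPKM of each of the 9 members in WT (grey) and Homo (red) libraries, 1 point a library, with circles for libraries with fewer and triangles for libraries with more genes above 0, and a dash and bar for mean and SD. The genotypes are apart for Nkx6-2 (WT up to 8.66, Homo from 10.5 FPKM) and overlap in the other 8 panels.

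Sox10, the lineage's SOX factor, did not separate the genotypes. WT 1 to WT 5 had 0.428, 1.98, 2.51, 3.17 and 6.83 FPKM of it, and the Homo libraries had 1.13, 2.42 and 3.11 FPKM at the lowest, median and highest. All 7 Homo values lay inside the WT range, whose ends were WT 1 and WT 5. The log2 difference was -0.13 ± 0.35 (SE), with an adjusted p of 0.985 from limma over all 14017 genes and a two-sided exact permutation p of 0.737 over the 792 ways to assign the genotypes. The smallest p this design allows is 0.00126. The difference turned to 0.51 within the set of WT 1, WT 2 and Homo 1 to 5, and to 0.17 without WT 5.

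Mbp, which holds the inner faces of the myelin membrane together, was the most abundant member. WT 1 to WT 5 had 113, 99.2, 224, 42.3 and 350 FPKM. The Homo libraries had 83.2 FPKM at the lowest, 196 FPKM at the median and 248 FPKM at the highest. Both ends of the series were WT libraries, WT 4 and WT 5, and the Homo values lay between them. The log2 difference was 0.40 ± 0.43 (SE, limma adjusted p = 0.923, exact permutation p = 0.447), and it was -0.00380 without WT 4 and 0.75 without WT 5.

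Mobp ordered the libraries nearly as Mbp did (rho of 0.96) at a lower level. WT 1 to WT 5 had 8.19, 7.25, 24.7, 1.97 and 39.8 FPKM, and Homo had 6.92, 16.5 and 34.6 FPKM as lowest, median and highest. WT 4 was again the lowest library and WT 5 the highest, a 20.2-fold range. The log2 difference was 0.65 ± 0.55 (SE, limma adjusted p = 0.919, exact permutation p = 0.326), and it was 0.15 without WT 4 and 1.10 without WT 5.

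Mal and Cldn11 belong to the membrane of the sheath, Mal as a raft proteolipid that sorts cargo to it and Cldn11 as the claudin of its tight junctions. Mal had 6.44, 10.4, 5.95, 1.42 and 14.1 FPKM in WT 1 to WT 5, and 4.27, 8.66 and 20.9 FPKM at the lowest, median and highest Homo library. Only Homo 1 and Homo 7 exceeded the WT range. Its log2 difference was 0.49 ± 0.47 (SE, limma adjusted p = 0.923, exact permutation p = 0.378), and it was -0.028 within the set that listed fewer genes and 1.20 within the other. Without WT 4 it was 0.09, and without WT 5 it was 0.75. Cldn11 had 2.38, 0.975, 2.23, 0.563 and 5.82 FPKM in WT 1 to WT 5, and 1.47, 4.16 and 6.06 FPKM at the lowest, median and highest Homo library. A single Homo library, Homo 7, was above WT 5, although 6 of 7 were above the WT median. Cldn11 had the smallest permutation p of the myelin genes, with a log2 difference of 0.63 ± 0.37 (SE, limma adjusted p = 0.915, exact permutation p = 0.138). It was 0.40 without WT 4.

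Mog and Mag sit at the surface of the sheath, Mog on its outermost layer and Mag on the innermost one that faces the axon. Mog had 3.40, 0, 2.78, 0.720 and 5.27 FPKM in WT 1 to WT 5, and 2.34, 3.11 and 5.64 FPKM at the lowest, median and highest Homo library. WT 2 and WT 4 were below all Homo libraries, and WT 5 was above all but Homo 5. The log2 difference was 0.64 ± 0.40 (SE, limma adjusted p = 0.915, exact permutation p = 0.183). It was 0.27 without WT 2, the library listed at 0, and 1.37 with a pseudocount of 0.1. Mag had 1.65, 1.05, 2.57, 1.57 and 6.13 FPKM in WT 1 to WT 5, and 0.522, 2.52 and 6.36 FPKM at the lowest, median and highest Homo library. Homo 4 and Homo 1 were the lowest libraries for Mag and Homo 7 the highest, so Homo enclosed WT. Its log2 difference was 0.02 ± 0.42 (SE, limma adjusted p = 0.995, exact permutation p = 0.946), and it changed sign in 6 of the 12 fits that each left out 1 library. By the estimated size of 1 fragment, Mog rested on 0 to 77.9 fragments a library, Mag on 3.63 to 168, Cldn11 on 8.25 to 120 and Sox10 on 5.49 to 146, so that low values of all 4 carry a large counting error.

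Cnp, the phosphodiesterase that keeps cytoplasmic channels open in myelin, was the steadiest myelin gene. Its FPKM was 36.5, 31.4, 21.2, 24.3 and 41.9 over WT 1 to WT 5, and 29.8, 33.6 and 43.2 at the lowest, median and highest Homo library. WT 3 and WT 4 were below every Homo library, and the other WT libraries were among them. The log2 difference was 0.20 ± 0.19 (SE, limma adjusted p = 0.923, exact permutation p = 0.268), and it was -0.062 within the set that listed fewer genes and 0.55 within the other. Leaving out 1 library gave 0.077 without WT 3, 0.12 without WT 4 and 0.31 without WT 5. A stretch of 154 exon bases, 4.23% of the gene's, also belongs to Dnajc7 on the opposite strand, whose level was 82.1 ± 26.6 FPKM (SD, n = 5) in WT and 106 ± 32.4 FPKM (SD, n = 7) in Homo.

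Together, none of Sox10 and the 7 myelin genes passed an adjusted p of 0.05, where 0.00713% of all genes did, a single gene. All 7 myelin genes had a higher log2 mean in Homo, with a median difference of 0.49, while 49.3% of the genes tested were higher in Homo and the median of all was -0.00621. None of the 8 had an unadjusted p under 0.05, which 3.05% of all genes had in the direction of Homo and 2.50% in the direction of WT. The median of the 7 myelin genes was 0.12 without WT 4 and 0.75 without WT 5. The 7 genes share libraries and move together, so their common sign is not 7 separate observations.

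The spread within a genotype set the members apart from one another. On the log2 scale, the SD within genotype was 0.31 for Nkx6-2 and 0.29 for Cnp, above those of 11.8% and 7.75% of all genes tested. Choosing Nkx6-2 for its higher Homo values can favour a small spread, so its SD is only described. The other members were not chosen in that way. The SD was 1.08 for Mobp, above 89.0% of genes, 0.91 for Mal, 0.84 for Mbp, 0.78 for Mag, 0.75 for Mog, 0.66 for Cldn11 and 0.62 for Sox10. The median over all genes was 0.52. By level, Mbp (174 FPKM over all libraries) stood above Cnp (33.3 FPKM) in each library. Nkx6-2 (9.66 FPKM) and Mal (9.57 FPKM) had overlapping ranges, as had Cldn11 (3.25 FPKM), Mog (3.08 FPKM), Mag (2.70 FPKM) and Sox10 (2.54 FPKM), so no order is read among those.

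The myelin genes rose and fell with each other from library to library. Among their 21 pairs, r ran from 0.15 to 0.97 with a median of 0.48 over 12 libraries, as a description of points that share library and depth. Mbp and Mobp were the closest pair at 0.97, followed by Mog and Cldn11 at 0.87 and Mobp and Cldn11 at 0.86. Without WT 4 and WT 5, the libraries with the lowest and the highest myelin mean, Mbp and Mobp kept an r of 0.94 and Mog and Cldn11 one of 0.82, while the median over the pairs was 0.37 and 18 of 21 were above 0. Within the 7 libraries that listed fewer genes the median was 0.30, and Mag and Mal stood at -0.69. Among Mbp, Mobp and Cldn11, r was 0.66 or higher in each of these subsets.

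The relation of Nkx6-2 to this pattern depended on which libraries were taken. With the genotype means removed, its r with the mean of the 7 myelin genes was 0.07 over 12 libraries, whereas each myelin gene had an r of 0.47 to 0.93 with the mean of the other 6. WT 4 and WT 5 lay far from any common order. WT 4 had the highest Nkx6-2 of the WT libraries and the lowest myelin mean of all 12, at 2.25 on the log2 scale. WT 5 had the highest myelin mean, 4.49, at 7.35 FPKM of Nkx6-2. These 2 libraries were picked after the values were seen, so leaving them out describes the data and tests nothing. Without them, the r between Nkx6-2 and the myelin mean, genotypes pooled, was 0.62 over 10 libraries, against 0.35 over all 12. Both values contain the difference that chose Nkx6-2. Within the 7 libraries that listed fewer genes, WT 4 and WT 5 not among them, this r was 0.74, genotypes again pooled. The median r of Nkx6-2 with a single myelin gene was 0.60 there, against 0.30 among the myelin genes themselves. The 0.60 contains the same genotype difference. The single genes were split, with 0.76 for Mobp, 0.72 for Cldn11, 0.70 for Mog and 0.60 for Mbp. Mal was at 0.06, Mag at 0.02 and Cnp at -0.26, and none of these relations passed after adjustment.

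**Figure D2:**
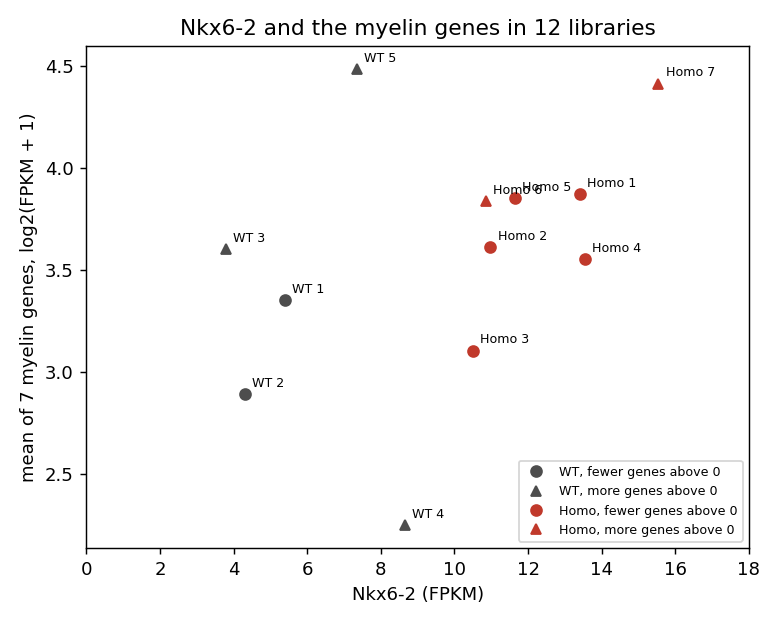
Nkx6-2 in FPKM (horizontal) against the mean of the 7 myelin genes in log2(FPKM + 1) (vertical), 1 point a library, grey for WT and red for Homo. Homo libraries lie to the right of all WT libraries, while WT 4 (2.25) and WT 5 (4.49) mark the lowest and the highest myelin mean.

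**Figure D3:**
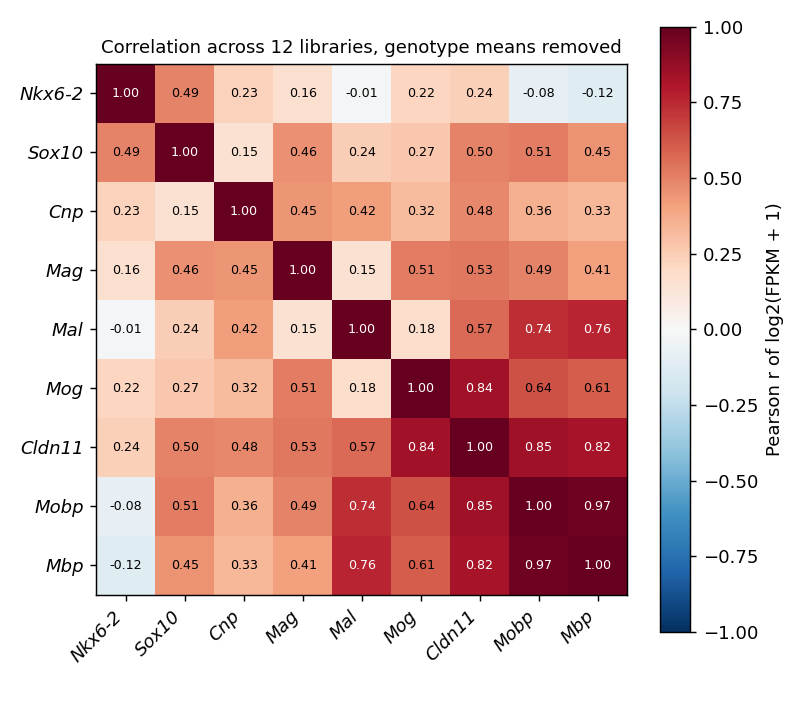
Pearson r of log2(FPKM + 1) between each pair of members over 12 libraries with the genotype means removed, from blue (-1) through white to red (1). Mbp, Mobp and Cldn11 form the darkest block (0.82 to 0.97), and Nkx6-2 has r of -0.12 to 0.24 with the myelin genes and 0.49 with Sox10.

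Because Nkx6-2 separates the genotypes, the relation was also taken within Homo, and 8 relations were computed each time. In the 7 Homo libraries the r of Nkx6-2 ran from 0.04 with Mag to 0.77 with Cldn11. Cldn11 had an exact permutation p of 0.0433 for r and of 0.0238 for a rho of 0.86, and these were 0.189 and 0.190 after Benjamini-Hochberg adjustment over the 8 relations. Sox10 had an r of 0.72 (exact permutation p = 0.0708) and a rho of 0.61 (exact permutation p = 0.167). None of the 8 passed after adjustment.

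Among WT 1, WT 2 and Homo 1 to 5, the 7 libraries with fewer genes, Nkx6-2 had an r of 0.76 with Mobp (exact permutation p = 0.0431, adjusted 0.204) and a rho of 0.79 (exact permutation p = 0.0480, adjusted 0.192). Cldn11 had an r of 0.72 (exact permutation p = 0.0766) and a rho of 0.86 (exact permutation p = 0.0238, adjusted 0.190). These 7 libraries pool the genotypes, so their r, rho and p-values contain the difference that chose Nkx6-2. They cannot tell whether Mobp or Cldn11 follows it. With the genotype means removed, r over 12 libraries was -0.079 for Mobp and 0.24 for Cldn11. Over all 12 libraries with genotypes pooled, r also contains that difference. It ran from 0.09 with Mag to 0.50 with Cldn11. For Cldn11 the permutation p was 0.0935 (adjusted 0.476), with a rho of 0.65 (permutation p = 0.0252, adjusted 0.202). Leaving out WT 2 and WT 3, the libraries farthest from the median of Nkx6-2, gave an r of 0.37 for Cldn11 and of -0.042 for Mag.

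The members were also compared between the library sets, and none passed. With genotype in the model, all 9 were higher by value in the libraries with more genes above 0, as were 54.1% of the genes tested. Mag was higher there by 0.92 ± 0.38 (SE, limma adjusted p = 0.535) and Sox10 by 0.76 ± 0.32 (SE, limma adjusted p = 0.540). These 2 of 9 members had an unadjusted p under 0.05 in that direction, which 4.44% of all genes had, while an adjusted p of 0.05 was passed by 0.178% of all genes and by 0 of the 9. For Nkx6-2 the set difference was 0.21 ± 0.22 (SE, adjusted p = 0.840). No interaction of genotype and set passed for Sox10 or a myelin gene, the limma adjusted p for Cnp, the lowest of them, being 0.881.

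Blood transcripts varied with the myelin genes from library to library. The 5 red blood cell genes were a list added after their values were seen. The r of their mean with the myelin mean was 0.83 over 12 libraries with genotype means removed. Hba-a2, 1 of the 5, was also among the genes most like this myelin mean in a search over all genes tested. This r is therefore not independent of that search. Taken the same way, r was 0.91 for the further myelin and mature oligodendrocyte genes and 0.84 for lipid synthesis and for transcription factors. It was 0.55 for precursors, 0.53 for neurons and, at the lowest, -0.40 for microglia. With genotypes pooled, the r of the red blood cell genes was 0.65 over 12 libraries. It was 0.67 over 10 without WT 4 and WT 5, and 0.62 in the 7 libraries with fewer genes. Their summed level was 42.4 to 590.0 FPKM across WT and 46.7 to 355 FPKM across Homo libraries, and Alas2 and Hba-a1 reached 0 in some libraries. All 5 were lower in Homo by log2 mean, with differences from -1.37 to -0.00131, while 49.3% of the genes tested were higher there. With genotype in the model, all 5 were higher in the libraries with more genes above 0, as were 54.1% of the genes tested. The median difference was 1.58, and that set holds 3 WT and 2 Homo libraries. Of the 5, 4 had an unadjusted limma p under 0.05, which 4.44% of all genes had in that direction. None passed after adjustment. Hba-a2, a haemoglobin gene, had 6.39 FPKM in WT 4 and 76.3 FPKM in WT 5, the same libraries that end the myelin scale. Its lowest value was 1.41 FPKM in Homo 3, which ranked 10 of 12 by myelin mean, at 3.10 on the log2 scale. Hba-a1 and Hba-a2 are near copies of each other, so their separate values are uncertain. The part of blood or of dissection in the myelin values was not tested.

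**Figure D4:**
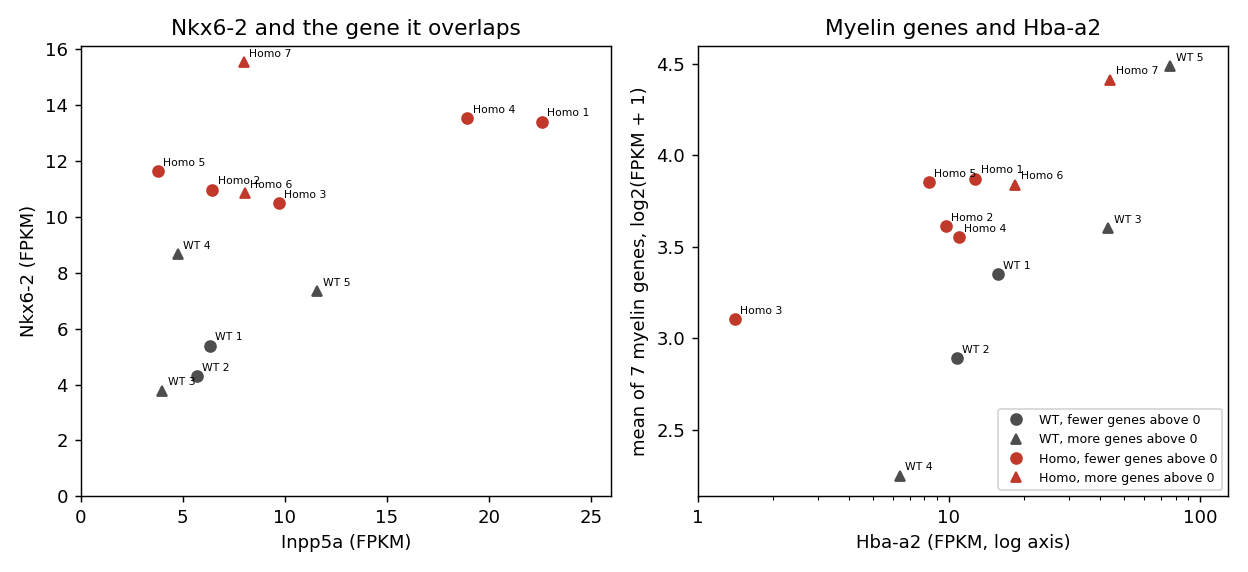
Left, Inpp5a against Nkx6-2, both in FPKM; right, Hba-a2 in FPKM on a log axis against the mean of the 7 myelin genes in log2(FPKM + 1), 1 point a library, grey for WT and red for Homo. Nkx6-2, chosen for its higher Homo values, is above 10 FPKM in every Homo library, and Inpp5a runs from 3.78 to 22.6 FPKM there. WT 4 and WT 5 lie at the bottom and the top of the right-hand panel, and its lowest Hba-a2 value is 1.41 FPKM in Homo 3.

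Other genes of the lineage were read from lists of its stages, and none of their members passed an adjusted p of 0.05 or an unadjusted p under 0.05. Of 5 precursor genes tested, 1 was higher and 4 were lower in Homo by value, with a median log2 difference of -0.44, which turned to 0.21 within the libraries with more genes. Ptprz1, a receptor phosphatase of precursors and astrocytes and the most abundant of them, differed by 0.02 ± 0.19 (SE, limma adjusted p = 0.995). Of 8 genes of newly formed oligodendrocytes, 6 were higher and 2 lower, with a median of 0.19. Sirt2, a deacetylase abundant in myelinating cells, was at 51.3 ± 8.26 FPKM (SD, n = 5) in WT and 70.3 ± 17.7 FPKM (SD, n = 7) in Homo, with a log2 difference of 0.42 ± 0.20 (SE, limma adjusted p = 0.899).

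The transcription factors that act beside Nkx6-2 and Sox10 were split, 4 higher and 4 lower of 8 tested, with a median of -0.00843 that was 0.16 within the libraries with more genes. Olig1, a lineage factor of the basic helix-loop-helix class, differed by 0.09 ± 0.25 (SE, limma adjusted p = 0.985). The table lists Myrf, the factor that switches on myelin genes, under the symbol Gm98, and its mean of 0.867 FPKM was below the filter. Of 15 further myelin and mature oligodendrocyte genes tested from a list of 26, 11 were higher and 4 lower, with a median of 0.15. Plekhb1, the most abundant, was at 100.2 ± 15.5 FPKM (SD, n = 5) in WT and 111 ± 17.3 FPKM (SD, n = 7) in Homo.

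Genes of the contact between axon and myelin were 3 higher and 4 lower of 7, with a median of -0.06 that was 0.12 within the libraries with more genes. Cadm3, an adhesion protein of the axon, differed by 0.17 ± 0.19 (SE, limma adjusted p = 0.925). Of 6 lipid synthesis genes tested, 2 were higher and 4 lower, with a median of -0.07 that turned to 0.26 within the libraries with more genes, and Degs1, the desaturase that makes ceramide, differed by -0.00173 ± 0.19 (SE, limma adjusted p = 0.998). The Schwann cell gene Prx did not exceed 0.118 FPKM, while Pmp22 was at 7.51 FPKM on average.

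**Figure D5:**
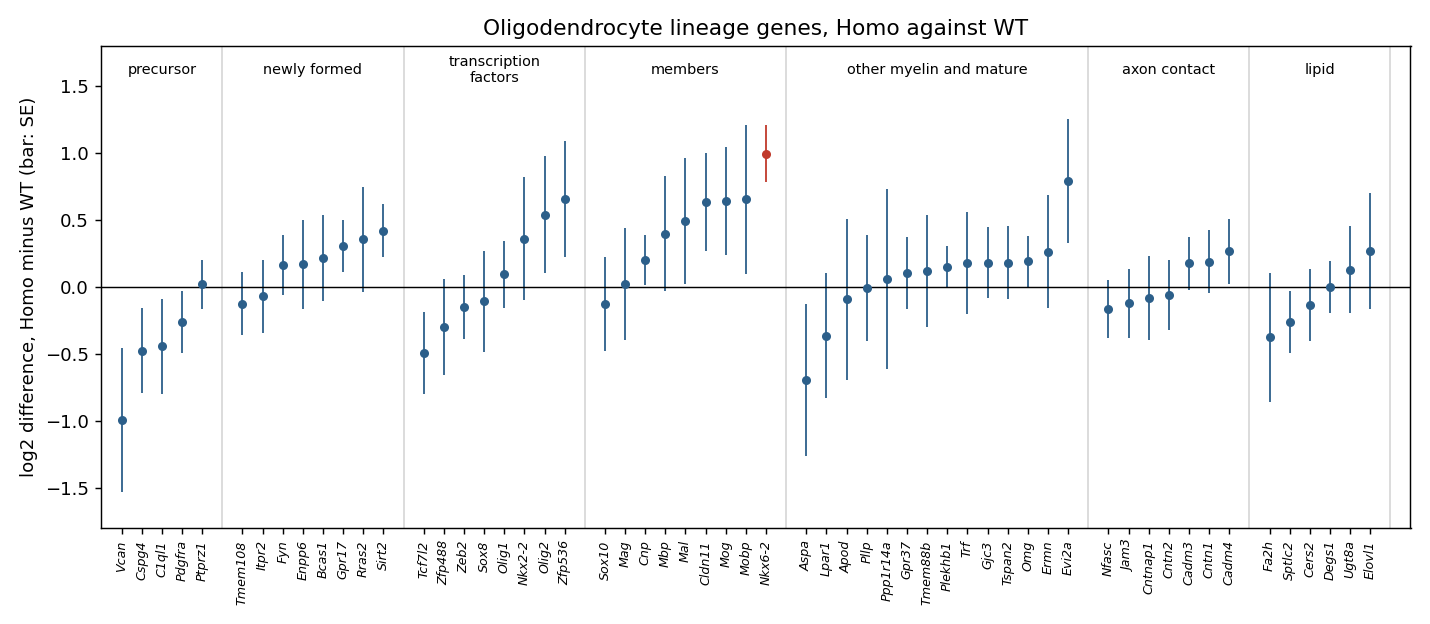
Difference between Homo and WT in log2(FPKM + 1) for the 9 members and genes tested of the lineage lists, with bars for the SE, sorted within each list. Nkx6-2 (red, 0.99) was chosen for its position, and the other members run from -0.13 to 0.65.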

How the data were processed

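RNA from laser-captured ARC was amplified with the NuGEN RNAseq v2 system and sequenced on an Illumina instrument. The authors deposited 1 table of FPKM values for 38283 genes in 12 libraries. The submitters' processing notes name TopHat2 2.0.8, Cufflinks 2.2.1 and GRCm38; the annotation and the strand setting are not given in the sources used here. All columns were matched to samples, and 0 were left over. The labels do not state that each sample is a separate animal, so p-values measure the spread between these samples.

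From the deposited FPKM, log2(FPKM + 1) was tested without further scaling for genes with a mean of at least 1 FPKM, with limma 3.58.1 in R 4.3.3 (genotype as the only term, trended and robust variances, Benjamini-Hochberg adjustment over 14017 genes). Log2 differences on this scale understate changes of low genes. Single genes were also compared by exact permutation of genotype, and correlations by 100000 permutations or, for 7 libraries, by all of them. The scripts were checked on simulated data. Fragments per gene were estimated from the smallest steps of FPKM times the longest transcript length less 180 bases; read counts were not used here, so depth is approximate.

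The members and the gene lists were chosen with earlier results of these data known. Named genes are the 9 members, the Nkx6 paralogs, the most abundant gene of each list with up to 3 genes with an unadjusted p under 0.05, and the 5 genes most like Nkx6-2 and like the myelin mean. Defining microglial and arcuate markers, Myrf, Inpp5a, Dnajc7 and the haemoglobin genes were named with their values known. Gene positions follow GENCODE mouse release 21, and start regions are RefSeq's (GRCm38.p6). Alternatives covered the pseudocount, the filter, upper-quartile and quantile scaling, the library set, a replicate block, and each library left out. Some genes of the lists are not reported here by name, nor drawn. Plots were drawn with matplotlib 3.10.9.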

Additional observations from a re-analysis of the deposited data

How the results depend on the processing

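Numbers of genes called were small throughout. Against 1 gene called in the comparison of genotypes, there were 19 in the libraries with more genes above 0, 6 in those with fewer, 4 with Homo 1 to 5 only and 1 to 3 when 1 library was left out, the highest without WT 2. For the library set, 25 genes were called, and 14 to 21 with 1 library left out. Same-numbered libraries did not deviate together (correlations of -0.05 to 0.03), so the numbers pair nothing; with the replicate block, which leaves out Homo 6 and Homo 7, 2 genes were called, the myelin median was 0.30 and Mag stood at -0.27.

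The sign changed for Sox10 to 0.11 with the library set as covariate, 0.51 in the libraries with fewer genes, and 0.36 without WT 4 and WT 5 (chosen after seeing the data), with -0.44 to 0.17 over single libraries left out. Mag turned to -0.040 with a pseudocount of 0.1 and -0.27 with Homo 1 to 5 only, with -0.17 to 0.31 over single libraries. In the libraries with fewer genes Cnp was at -0.062 and Mal at -0.028, and Mbp ran from -0.00380 to 0.75 over single libraries. The set difference changed sign in the fits that left out 1 library for Mog (-0.11 to 0.62), Cnp (-0.047 to 0.17) and Mal (-0.28 to 0.47). List medians moved for precursors to 0.21 and lipid synthesis to 0.26 in the libraries with more genes, for microglia to 0.73 with a mean of at least 5 FPKM (5 genes), and for endothelial cells to -0.068 and arcuate neurons to -0.11 in the libraries with fewer genes. The r of Nkx6-2 turned with genotype means removed for Mbp (-0.12), Mobp (-0.079) and Mal (-0.011), with quantile normalization for Mbp (-0.00178), without WT 2 and WT 3 for Mag (-0.042) and Cnp (-0.051), and in the libraries with fewer genes for Cnp (-0.26). Over single libraries left out it was -0.092 to 0.33 for Sox10 and -0.13 to 0.27 for Mag. The unadjusted permutation p of this r was under 0.05 for Mobp in the libraries with fewer genes (r of 0.76). That p pools the genotypes and contains the difference that chose Nkx6-2, so it cannot tell whether Mobp follows. It was also under 0.05 for Cldn11 in Homo alone (r of 0.77, added after seeing the data). Neither passed after adjustment over the 8 relations. The cause of these changes was not tested. The median of the 7 myelin genes stayed above 0 under every alternative run, from 0.12 to 0.75, and none of the 8 members tested passed an adjusted p of 0.05 in any.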

Other observations

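The genes whose pattern over the 12 libraries was most like that of Nkx6-2, with the genotype means removed, were Plch1 (r = 0.90), the long non-coding RNA A530017D24Rik (0.88), Trnt1 (0.84), Ift27 (0.84) and Sirt1 (0.83). Plch1 encodes a phospholipase C and Trnt1 the enzyme that completes the ends of transfer RNAs. Plch1 had 0.768 FPKM in WT 3 and 3.76 FPKM in WT 4, the libraries with the lowest and the highest Nkx6-2 of the WT group. Ift27, an intraflagellar transport protein, ran from 2.28 FPKM in WT 3 to 12.6 FPKM in Homo 4. None of the 5 belongs to a myelin list. They are the extremes of a search over all genes tested, and r is given as a description.

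Those most like the mean of the 7 myelin genes were A230072C01Rik (0.94), Hba-a2 (0.91), Nt5c3l (0.90), Naa50 (0.88) and Prpf4b (0.86). A230072C01Rik, a transcript annotated as non-coding, had 0.719 FPKM in WT 4 and 3.38 FPKM in WT 5. Naa50, an amino-terminal acetyltransferase, had 11.9 FPKM in WT 4 and 21.5 FPKM in WT 5.

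Among the markers of other cells, none of which passed an adjusted p of 0.05, C1qa, a complement gene of microglia, was at 9.93 ± 3.87 FPKM (SD, n = 5) in WT and 18.6 ± 5.33 FPKM (SD, n = 7) in Homo (log2 difference 0.87, limma adjusted p = 0.763). Aif1, a microglial calcium-binding protein gene, differed by 0.79 (limma adjusted p = 0.870), and C1qb, the most abundant of the list, by 0.46 (adjusted p = 0.899). Gad1, the enzyme that makes GABA, differed by 0.35 (limma adjusted p = 0.899), and Snap25, the most abundant gene of the general neuron list, by 0.01. Npy differed by 0.60 (limma adjusted p = 0.887) and Agrp by 0.60 (limma adjusted p = 0.899). Between the library sets, both had lower values where more genes were listed, with differences of -0.94 for Agrp (limma adjusted p = 0.0293) and -0.60 for Npy (limma adjusted p = 0.417), and only 2 of those 5 libraries are Homo. With the set as a covariate, the genotype difference was 0.41 for Npy and 0.30 for Agrp. The C1qa, Aif1, Gad1, Npy and Agrp differences had an unadjusted p under 0.05, as had that of the tanycyte gene Crym. Crym differed by -0.98 (limma adjusted p = 0.899) and Rarres2 by -0.33. Aldoc of astrocytes differed by 0.20, and Slc2a1 of endothelial cells by 0.02.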
